A study of Mus musculus with 11 samples.

Results

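The 6 transcripts described here were counted weakly or moderately in the forelimb bud of the mouse embryo at E10.5 and were higher in embryos with 2 floxed alleles of Gmnn than in their littermates. They are Ano3, Trp53cor1, Fam212b, AI662270, Pvt1 and Ddit4l, 6 of 47517 gene names in the deposited count table. All 6 passed the filter on low counts and were among the 15821 genes tested. Ano3, Trp53cor1 and AI662270 had at most 8, 7 and 10 reads in any control and met the filter through their mutant libraries. They were chosen by name because their reads were low and the mutant libraries lay above the control libraries. Their difference between genotypes is therefore given as a description, with no test. The name given to the set, low-level transcripts that rise strongly, holds for 4 of them. Ano3, Trp53cor1, Fam212b and AI662270 stood between the 16.4th and the 27.0th percentile of mean CPM among the genes tested. They were 5.13-fold to 11.8-fold higher in mutants. The percentile used the mean over all 11 libraries, mutants included, and was not scaled for exon length. Pvt1 and Ddit4l stood at the 46.8th and the 46.7th percentile, close to the middle, and were 1.60-fold and 2.09-fold higher.

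Gmnn encodes Geminin, which binds the replication licensing factor Cdt1. Control embryos carried the genotype Gmnn +/f; Prx-Cre and mutant embryos Gmnn f/f; Prx-Cre, all on a C57BL/6 background, so that both groups carried Cre recombinase and at least 1 floxed allele. Prx-Cre is active in limb bud mesenchyme and leaves ectoderm, vessels and blood cells of the same bud largely without recombination. RNA came from 5 control and 6 mutant embryos of 4 litters, matched for litter and somite number. With litters called A to D, the 2 libraries of each genotype from litter A are controls 1 and 2 and mutants 1 and 2. Litter B gave control 3 with mutant 6, litter C gave control 4 with mutant 5, and litter D gave control 5 with mutants 3 and 4. Total counts ran from 14721181 to 19733288 per library. As examples, 1 read was worth 0.0559 CPM (read counts scaled by library size and by TMM) in control 1 and 0.0701 CPM in control 5. Gmnn itself lay between 139.3 and 238.9 CPM in controls and between 99.5 and 137.7 CPM in mutants, which is -0.67 on the log2 scale (SE 0.10, adjusted p 0.0291 by edgeR). That call did not hold in 8 of 11 fits that each omitted a library. All 10 markers of limb mesenchyme on a set list were counted well enough to be tested, with a summed level of 968 to 1212 CPM in controls and 871 to 1024 CPM in mutants. Of them 2, Meis1 (log2 fold change -0.63, edgeR adjusted p 0.0291) and Lhx9 (-0.50, edgeR adjusted p 0.0406), were lower in mutants.

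The transcription factor p53 is stabilised after DNA damage and replication stress and then switches on genes that stop the cell cycle, repair DNA or start apoptosis. Some of its targets are long non-coding RNAs. Trp53cor1, also known as lincRNA-p21, is transcribed from the gene next to Cdkn1a and is induced by p53 in mouse cells. Pvt1 is a long non-coding RNA gene downstream of Myc, and an isoform of it is induced by p53. Fam212b, now named Inka2, encodes an inhibitor of the kinase PAK4. Ddit4l, also called REDD2, is a stress-responsive relative of Ddit4 that lowers mTORC1 signalling. Ano3 encodes anoctamin 3, a membrane protein of the TMEM16 family known from neurons. AI662270 is an annotated RNA gene without a known protein product.

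Sequences are shown for the RNA whose counts are most affected by overlap and for the promoters of the coding genes with a p53 motif match and of the gene with the highest fold change. The splice junction of Trp53cor1 joins the last base of its first exon (chromosome 17, 29078891) to the first base of its second exon (29060358) on the minus strand in GENCODE M21. The first line gives 40 bases on each side, with the second exon in capitals. The other lines are promoter windows of 300 bases from RefSeq on GRCm38.p6, mostly upstream of a start site and including its first 50 bases. In those lines capitals mark a match to the p53 half-site consensus.

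Trp53cor1 junction: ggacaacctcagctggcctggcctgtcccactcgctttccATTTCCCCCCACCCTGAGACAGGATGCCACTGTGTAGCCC

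Fam212b, chr3:105705208-105705507, plus strand: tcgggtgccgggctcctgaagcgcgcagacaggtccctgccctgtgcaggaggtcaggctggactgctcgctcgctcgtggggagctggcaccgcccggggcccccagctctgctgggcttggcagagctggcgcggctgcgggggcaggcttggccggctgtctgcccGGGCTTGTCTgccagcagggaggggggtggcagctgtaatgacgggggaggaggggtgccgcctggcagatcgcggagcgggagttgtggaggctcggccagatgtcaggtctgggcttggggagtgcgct

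Ddit4l, chr3:137623422-137623721, plus strand: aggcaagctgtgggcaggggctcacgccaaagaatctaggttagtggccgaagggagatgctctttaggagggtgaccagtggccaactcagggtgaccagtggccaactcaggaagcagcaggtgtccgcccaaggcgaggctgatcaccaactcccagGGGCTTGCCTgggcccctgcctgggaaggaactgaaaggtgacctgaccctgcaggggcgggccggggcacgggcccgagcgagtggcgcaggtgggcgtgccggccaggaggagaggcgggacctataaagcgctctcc

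Ano3, chr2:110950195-110950494, minus strand: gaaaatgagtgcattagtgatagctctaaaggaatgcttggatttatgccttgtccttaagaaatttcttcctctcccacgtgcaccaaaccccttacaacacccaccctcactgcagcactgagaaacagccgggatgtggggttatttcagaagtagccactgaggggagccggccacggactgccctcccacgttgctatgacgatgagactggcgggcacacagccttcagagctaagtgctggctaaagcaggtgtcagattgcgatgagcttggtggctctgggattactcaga

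Of the 6 genes, 3 had promoter entries, with 5 windows in all. Windows were searched for the p53 half-site, a palindromic motif given here by its name alone, so that a search of one strand covers both. A match was found in 1 of the 2 windows of Fam212b, in the 1 window of Ddit4l and in neither window of Ano3. The Fam212b match, GGGCTTGTCT, starts at position -81 from the start site at 105705458, and the Ddit4l match, GGGCTTGCCT, at -90 from that at 137623672. Of all 32851 promoter windows of this length in the RefSeq table, 2745 (8.36%) hold such a match. A match describes letters in the window and is not evidence of binding. The start sites of Fam212b and Ddit4l coincide with an exon start in the count table, and those of Ano3 do not. GC content was 72% in the Fam212b window shown, 65.7% in that of Ddit4l and 52% in that of Ano3, where the median of all windows was 52.7%.

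**Figure D1:**
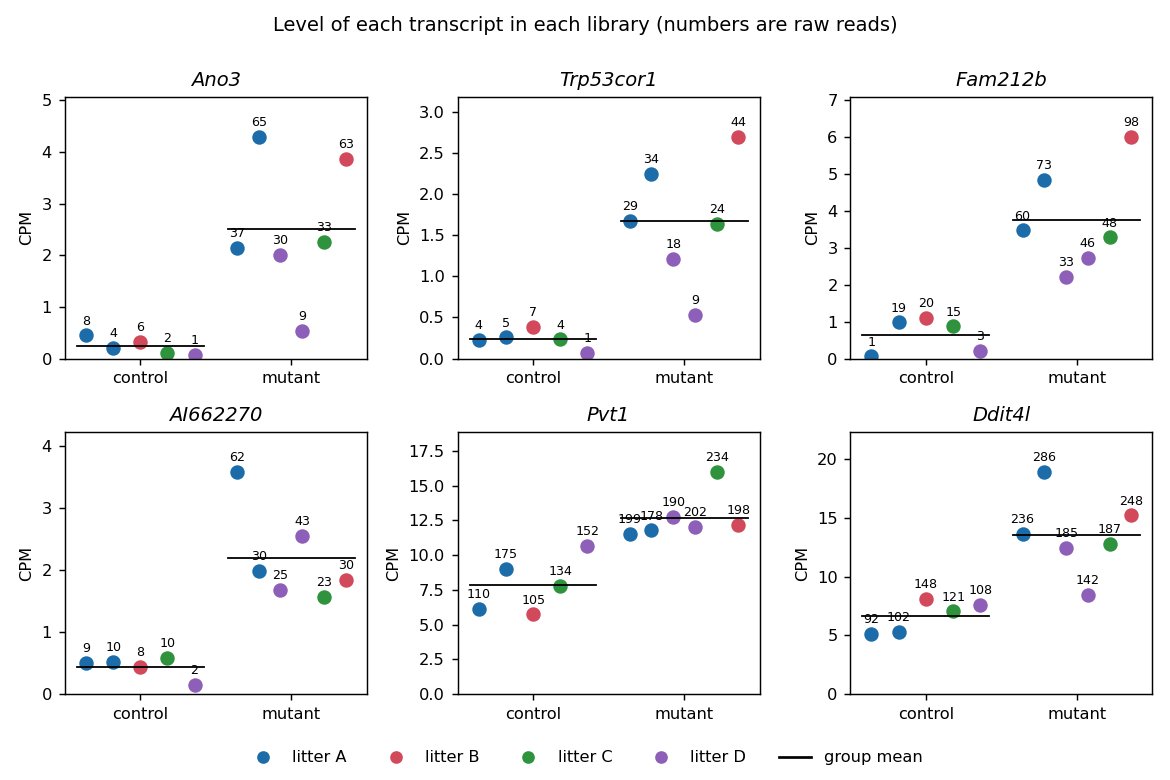
CPM (vertical axis, from 0) of the 6 transcripts in each of the 5 control and 6 mutant libraries, coloured by litter, with raw reads printed at each point and a line at the group mean. Every mutant point lies above every control point in all 6 panels. The lowest mutant and the highest control are 0.535 and 0.447 CPM for Ano3 and 8.44 and 8.07 CPM for Ddit4l.

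Among the long non-coding RNAs, Trp53cor1 had 4, 5, 7, 4 and 1 reads in controls 1 to 5 and 29, 34, 18, 9, 24 and 44 reads in mutants 1 to 6. This was 0.224, 0.257, 0.382, 0.232 and 0.0701 CPM in controls and 1.68, 2.25, 1.21, 0.535, 1.64 and 2.70 CPM in mutants. The lowest mutant, mutant 4, lay above the highest control, control 3, and both libraries at the low end of their group, control 5 and mutant 4, came from litter D. The means were 0.233 ± 0.111 CPM (SD, n = 5) and 1.67 ± 0.761 CPM (SD, n = 6), which the model with a litter term gives as 2.95 on the log2 scale (SE 0.36). Over a group, 21 reads were counted in controls (95% Poisson interval 13.0 to 32.1) and 158 in mutants (134 to 185); such intervals cover counting error only. These are levels in whole buds, where more cells with the transcript and more RNA per cell cannot be told apart.

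AI662270 had 9, 10, 8, 10 and 2 reads in controls 1 to 5 and 62, 30, 25, 43, 23 and 30 reads in mutants 1 to 6. Its levels were 0.503, 0.515, 0.436, 0.581 and 0.140 CPM in controls and 3.59, 1.98, 1.68, 2.56, 1.57 and 1.84 CPM in mutants. Controls 1 to 4 were close together and control 5 was far below them. Here mutant 1 was highest and mutant 5 lowest, an order unlike that of Trp53cor1. The means were 0.435 ± 0.173 CPM (SD, n = 5) and 2.20 ± 0.760 CPM (SD, n = 6), and the log2 fold change was 2.36 (SE 0.36).

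Pvt1 was counted with 110, 175, 105, 134 and 152 reads in controls 1 to 5 and with 199, 178, 190, 202, 234 and 198 reads in mutants 1 to 6. In CPM this was 6.15, 9.01, 5.72, 7.78 and 10.7 in controls and 11.5, 11.8, 12.8, 12.0, 15.99 and 12.1 in mutants. The groups did not overlap, but control 5 at 10.7 CPM came within 1 CPM of mutant 1. The means were 7.86 ± 2.04 CPM (SD, n = 5) and 12.7 ± 1.67 CPM (SD, n = 6), with a log2 fold change of 0.68 (SE 0.15). Of the 15821 genes tested, 521 had a fold change at least as high as that of Pvt1, against 6 for Ano3, 10 for Trp53cor1, 15 for Fam212b, 25 for AI662270 and 171 for Ddit4l. Each of these counts includes the gene itself. Ano3, Trp53cor1 and AI662270 entered this ranking through their mutant reads, so nothing is read from their ranks.

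Ano3, among the coding genes, had 8, 4, 6, 2 and 1 reads in controls 1 to 5 and 37, 65, 30, 9, 33 and 63 reads in mutants 1 to 6. This was 0.447, 0.206, 0.327, 0.116 and 0.0701 CPM in controls and 2.14, 4.30, 2.02, 0.535, 2.25 and 3.87 CPM in mutants. Mutant 4 was again the lowest mutant, at 0.535 CPM next to 0.447 CPM in control 1, and the highest mutant had 8.04 times its level. The means were 0.233 ± 0.155 CPM (SD, n = 5) and 2.52 ± 1.37 CPM (SD, n = 6). The log2 fold change of 3.56 (SE 0.45) was the highest of the set, from 21 control reads (95% Poisson interval 13.0 to 32.1) and 237 mutant reads (208 to 269).

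Fam212b had 1, 19, 20, 15 and 3 reads in controls 1 to 5 and 60, 73, 33, 46, 48 and 98 reads in mutants 1 to 6. Its levels were 0.0559, 0.978, 1.09, 0.871 and 0.210 CPM in controls and 3.47, 4.83, 2.22, 2.73, 3.28 and 6.01 CPM in mutants. The controls fell apart into controls 2 to 4, near 1 CPM, and controls 1 and 5, far below. At the mean level of the other controls, control 1 would have had 14.1 reads in place of 1, and control 5 10.7 in place of 3. The means were 0.641 ± 0.473 CPM (SD, n = 5) and 3.76 ± 1.41 CPM (SD, n = 6), with a log2 fold change of 2.68 (SE 0.42), and 2.36 without control 1.

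Ddit4l had 92, 102, 148, 121 and 108 reads in controls 1 to 5 and 236, 286, 185, 142, 187 and 248 reads in mutants 1 to 6. This was 5.15, 5.25, 8.07, 7.03 and 7.57 CPM in controls and 13.7, 18.9, 12.4, 8.44, 12.8 and 15.2 CPM in mutants. The lowest mutant, mutant 4, lay just above the highest control, control 3. The means were 6.61 ± 1.34 CPM (SD, n = 5) and 13.6 ± 3.45 CPM (SD, n = 6), or 1.06 on the log2 scale (SE 0.19).

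In all 6 transcripts every mutant library lay above every control library. Over the genes tested, 204 (1.29%) showed that and 206 (1.3%) the reverse, and among the 5732 genes with a mean under 5 CPM, to which 4 of the 6 belong, 31 (0.541%) did. A log2 fold change of at least 1 was found for 5 of the 6 and for 1.31% of the genes tested. Since the 6 were chosen for this contrast, nothing is read from these counts. By the edgeR quasi-likelihood test at an adjusted p under 0.05, 0.702% of the genes tested were higher and 1.48% lower in mutants.

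Levels between genes can be compared only per length of exon. Per kilobase, the mean level in controls rose in the order Ano3 (0.0323 CPM per kb), Trp53cor1 (0.0788), Fam212b (0.134), AI662270 (0.292), Pvt1 (1.12) and Ddit4l (2.27). In mutants the order was Ano3 (0.349 CPM per kb), Trp53cor1 (0.564), Fam212b (0.786), AI662270 (1.48), Pvt1 (1.82) and Ddit4l (4.65). The order of the 6 was thus the same in both groups, with AI662270 moving from well below Pvt1 to near it. The short exons of AI662270 (1489 bases, against 6996 in Pvt1) put it above Ano3 per length although its CPM was lower in mutants.

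The spread between mutant libraries was wider than counting alone gives for all 6 transcripts. The coefficient of variation among mutants was 54.4% for Ano3 where reads of that number alone give 15.9%, 45.6% against 19.5% for Trp53cor1, 37.6% against 12.9% for Fam212b, 34.5% against 16.8% for AI662270 and 25.4% against 6.84% for Ddit4l. Pvt1 was the most even, with 13.1% among mutants against 7.07% from counting. In controls the few reads weigh more: 47.7% was seen and 48.8% comes from counting for Trp53cor1, and 39.7% and 35.8% for AI662270. For the other 4 the controls spread more than counting gives, with 73.8% against 29.4% for Fam212b, 66.3% against 48.8% for Ano3, 25.9% against 8.60% for Pvt1 and 20.3% against 9.36% for Ddit4l.

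**Figure D2:**
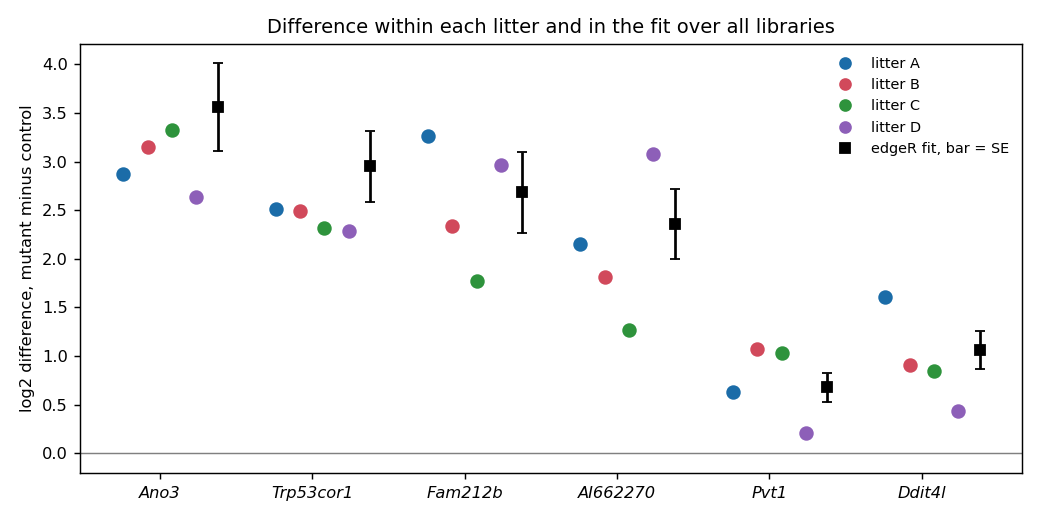
Log2 difference of mutant minus control within each litter (circles, from log2 CPM with a prior count of 2, litter A with 2 libraries of each genotype and litter D with 1 control and 2 mutants) and the edgeR fold change over all libraries with its SE (squares). All circles lie above 0, from 0.21 for Pvt1 in litter D to 3.33 for Ano3 in litter C.

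All 6 transcripts were higher in mutants in each of the 4 litters. Trp53cor1 had log2 differences of 2.52, 2.49, 2.32 and 2.29 in litters A to D. Its plain CPM ratios of mutant to control, with no prior count, were 8.16, 7.07, 7.06 and 12.4, so that litter D, where the control had 1 read, was lowest on one scale and highest on the other. Ddit4l went from 1.61 in litter A over 0.90 and 0.85 in litters B and C to 0.43 in litter D. Pvt1 had 0.64, 1.07, 1.03 and 0.21, and its low value in litter D goes with its highest control. For AI662270 litter D gave the highest value, 3.07, next to 2.15, 1.82 and 1.27 in litters A to C, and there control 5 had 2 reads. For Ano3 and Trp53cor1 all 4 values lie below the fitted fold change. The log2 CPM behind them carry a prior count of 2, which shrinks differences between few reads.

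Whether the genotype difference depended on the litter was tested by an interaction. The genes were not chosen on it, but they were chosen for mutant libraries above control libraries. Such a choice leaves less room for large litter effects or for differences that depend on the litter. Neither this test nor that of litter differences is therefore independent of the choice. None of the 6 passed by edgeR's quasi-likelihood test, and 0 of the 6 had an unadjusted p under 0.05, where 0% of the 16779 genes in that fit passed and 3.87% had an unadjusted p under 0.05. The smallest unadjusted p was that of Ddit4l, 0.0786 (edgeR adjusted p 0.962). The fit leaves 3 residual degrees of freedom, and litters B and C have 1 library of each genotype. DESeq2 and limma-voom also called 0 of the 6. Litter differences as such were tested on 3 coefficients together. None of the 6 passed in edgeR, DESeq2 or limma-voom. By edgeR, 1 of the 6, Trp53cor1, had an unadjusted p under 0.05 (0.0278, adjusted p 0.315), where 13.5% of all genes did and 0.0885% passed the adjusted threshold.

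The locus of each transcript was examined next, since reads over exons of more than 1 gene of the table were left uncounted and reads of genes missing from it could be counted for another. Counting used GENCODE M9 on mm10, without strand. Trp53cor1 (chromosome 17, 29057474 to 29078961, minus strand) has 2 exons of 71 and 2885 bases there, and 5.89% of its exon bases lie in another gene of the table, Gm27599, which had 0 reads. Such low counts of genes inside an exon are partly set by the counting. In the later GENCODE M21, 1645 bases (55.6%) lie in AC167363.1, a long non-coding RNA on the opposite strand. Reads from that RNA would have been counted as Trp53cor1, and the pair cannot be told apart in these counts. AI662270 (chromosome 11, 83223576 to 83226604, plus strand) shares no exon base with another gene of the table, but in M21 491 bases (33%) lie in Gm11427, a transcribed pseudogene on the same strand. Its counts are uncertain for the same reason.

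The other 4 loci hold little shared sequence. Ano3 (chromosome 2, 110655201 to 110950923, minus strand) shares 61 bases (0.845%) with Muc15, which had 0 reads in controls and 9 in mutants. Pvt1 (chromosome 15, 62037986 to 62378096, plus strand) shares 6.43% of its bases with 4 annotated features, of which only the pseudogene H2afy3 had reads, 2 in controls and 3 in mutants. Fam212b (chromosome 3, 105704599 to 105720842, plus strand) and Ddit4l (chromosome 3, 137621612 to 137628333, plus strand) shared none.

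**Figure D3:**
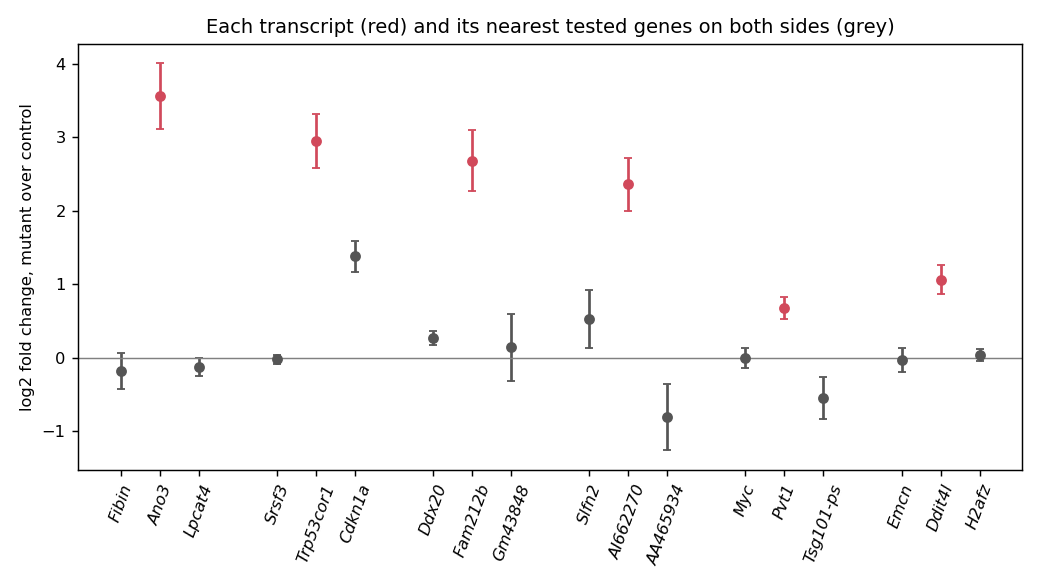
Log2 fold change of mutant over control with its SE for each of the 6 transcripts (red) and for the nearest tested gene on either side of it (grey), ordered by position. Among the 12 neighbours, Cdkn1a at 1.38 stands out, and Myc next to Pvt1 lies at -0.01.

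Of the 12 nearest tested neighbours, 1 was called by edgeR, where 2.18% of all genes tested were called in either direction. This was Cdkn1a, the cell cycle inhibitor p21, which starts 12.0 kb from the start of Trp53cor1 and is read in the opposite direction. The mean of Cdkn1a was 17.2 ± 4.27 CPM in the 5 controls and 45.3 ± 13.5 CPM in the 6 mutants (SD), and all mutants lay above all controls. On the log2 scale it rose by 1.38 (SE 0.21, adjusted p 0.0291 by edgeR). Omitting a library ended the call in 8 of 11 cases, with values from 1.24 to 1.66. Srsf3, a splicing factor gene 14.1 kb beyond the other end of Trp53cor1, stood at 491.7 ± 17.2 CPM in controls and at 483.4 ± 13.7 CPM in mutants (log2 fold change -0.03, SE 0.06, adjusted p 0.838 by edgeR). Trp53cor1 CPM, not scaled for exon length (2956 bases, against 2223 in Cdkn1a), was 0.309% to 2.10% of Cdkn1a CPM in controls. In mutants it was 1.77% to 5.24%, so that the ranges overlapped, with mutant 4 inside the control range. Reads from the RNA on the opposite strand would be counted as Trp53cor1 here too.

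Myc, which encodes a growth-promoting transcription factor, ends 47.6 kb before Pvt1. It had 58.9, 72.8, 44.0, 54.2 and 110 CPM in controls 1 to 5 and 62.1, 59.7, 68.0, 91.4, 82.9 and 52.7 CPM in mutants 1 to 6, so that the groups overlapped fully. The log2 fold change was -0.01 (SE 0.14, edgeR adjusted p 0.990). In controls both Myc and Pvt1 were highest in control 5 and lowest in control 3. On the far side of Pvt1 lay the pseudogene Tsg101-ps (-0.55, SE 0.29). The neighbours of Fam212b were Ddx20, a helicase gene (0.27, SE 0.10, edgeR adjusted p 0.159), and Gm43848 (0.14, SE 0.45). Those of Ddit4l were Emcn, an endothelial gene (-0.03, SE 0.16), and H2afz, a histone variant gene (0.03, SE 0.08). Around Ano3 lay Fibin (-0.18, SE 0.25) and Lpcat4 (-0.13, SE 0.12), and around AI662270 Slfn2 (0.53, SE 0.39) and AA465934 (-0.81, SE 0.45). None of these passed the threshold.

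Relatives of the coding genes were compared with them. Of 11 listed, 10 were tested and 0 passed by edgeR, 0 of them with every mutant above every control. Ano1 had 0.84 on the log2 scale (SE 0.24, adjusted p 0.0803 by edgeR), Ano2 1.22 (SE 0.57), Ano7 1.04 (SE 0.51), Ano4 0.37 (SE 0.34), Ano8 0.20 (SE 0.43) and Ano10 0.10 (SE 0.13). Ano6 (-0.22, SE 0.10) and Ano9 (-0.35, SE 0.50) were on the other side of 0, and Ano5 had too few reads to be tested. Ano6, at 42.5 ± 7.10 CPM in controls (SD, n = 5), was the anoctamin with the most reads. Ddit4, the paralogue of Ddit4l, which is also on the p53 list used here, had a mean of 12.6 CPM in both groups, with an SD of 2.56 over controls and 2.67 over mutants (log2 fold change 0.04, SE 0.14, edgeR adjusted p 0.892). Fam212a, the relative of Fam212b, had means of 144.8 and 158.3 CPM with SDs of 23.2 and 24.3 (0.09, SE 0.10, edgeR adjusted p 0.669).

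**Figure D4:**
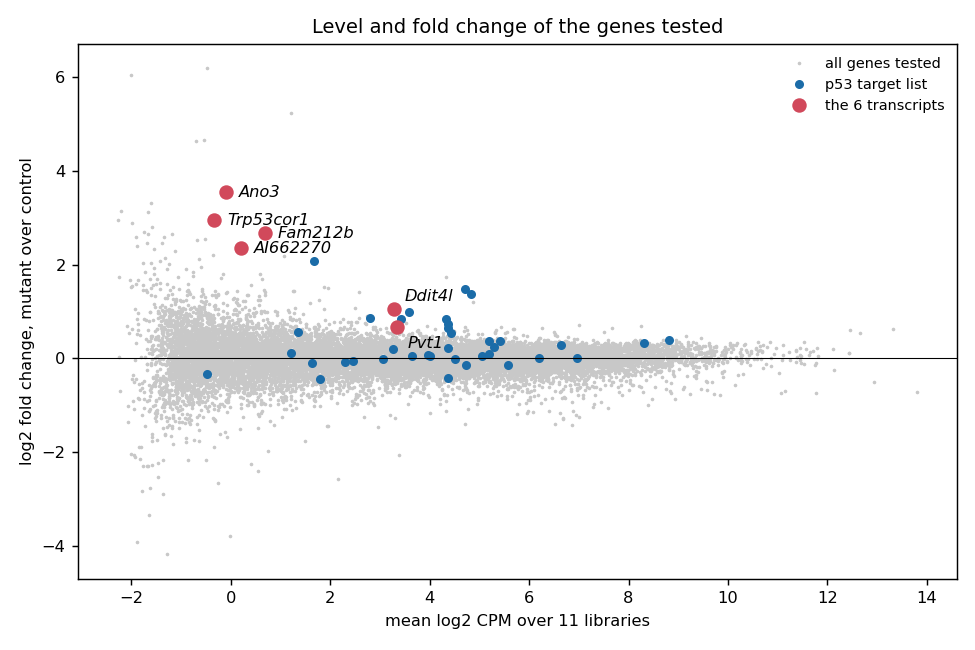
Log2 fold change of mutant over control (vertical axis) against mean log2 CPM over the 11 libraries (horizontal axis) for all 15821 genes tested (grey), the p53 target list (blue) and the 6 transcripts (red). Ano3, Trp53cor1, Fam212b and AI662270 lie at the upper edge of the scatter of weakly counted genes, while Pvt1 and Ddit4l lie among p53 targets of higher level.

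A list of 38 textbook p53 targets that excludes the 6 transcripts was fitted in the same model. Of 37 tested, 10 rose and 0 fell by edgeR at an adjusted p under 0.05, 26 had a fold change above 0, and the median log2 fold change was 0.21, where that of all genes tested was 0.00382. The 8 called genes with the highest fold changes were Eda2r, a death-domain receptor of the TNF receptor family (2.08, SE 0.23), Ccng1, cyclin G1 (1.48, SE 0.12), Cdkn1a (1.38, SE 0.21), Sesn2, a stress-induced inhibitor of mTORC1 (0.98, SE 0.16), Trp53inp1 (0.86, SE 0.17), Phlda3, an inhibitor of Akt (0.85, SE 0.19), Dcxr (0.83, SE 0.17) and Btg2, an antiproliferative gene (0.73, SE 0.14), with edgeR adjusted p of 0.000407 to 0.0468. Zmat3 and Ei24 were the other two. Mdm2, the ubiquitin ligase of p53 (log2 fold change 0.09), and Bbc3, which encodes the apoptosis inducer Puma (0.12), did not pass, nor did Sesn1 (-0.41, SE 0.10, adjusted p 0.0546 by edgeR). For Sesn1 every mutant lay below every control, at 15.1 to 20.2 CPM in mutants and 21.4 to 26.4 CPM in controls. The count of 10 fell to between 1 and 4 without any one of controls 1 to 4 or mutants 1, 3, 4, 5 and 6, and Ccng1 passed in all 11 such fits. It was 5 without the litter term, and 1, 2 and 1 without litters A, B and C.

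Of 13 other long non-coding RNAs on a set list, 11 were tested, 0 rose and 1 fell by edgeR. The one that fell was Tug1 (log2 fold change -1.04, SE 0.24, edgeR adjusted p 0.0499), and the median of the 11 was 0.13. The groups overlapped for Tug1, with 109 to 325 CPM in controls and 61.3 to 203 CPM in mutants. Neat1, which is also known as a p53 target, stood at 1.28 CPM in controls and 2.30 CPM in mutants (0.83, SE 0.38, edgeR adjusted p 0.229).

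Of the 5732 genes under 5 CPM, 20 (0.349%) were called higher, a count that includes members of the set. With a mean under 5 CPM, an adjusted p under 0.05 and a log2 fold change of at least that of Pvt1, 15 named genes beside the 6 were found. The 8 with the highest values were Prl7a1 (log2 fold change 4.66), Kcnmb1 (2.20), Eda2r (2.08), Rhbdl2 (1.95), Zfp365 (1.81), Ptprv (1.80), Etnk2 (1.71) and Ly6c1 (1.45), with edgeR adjusted p of 0.00550 to 0.0457. Of these Kcnmb1, Eda2r, Zfp365, Ptprv and Ly6c1 had every mutant above every control. Prl7a1, a placental hormone gene of the prolactin family, did not. It had 0 to 10 reads in controls, 1 to 16 in mutants 1, 3, 4 and 5, 161 in mutant 2 and 358 in mutant 6. Its call did not hold in 10 of 11 fits without a library. Etnk2 and Rhbdl2 each overlapped between groups. Kcnmb1 lost its call in 10 of the 11 fits, Rhbdl2, Ptprv, Etnk2 and Ly6c1 in 9, Zfp365 in 8 and Eda2r in 2.

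**Figure D5:**
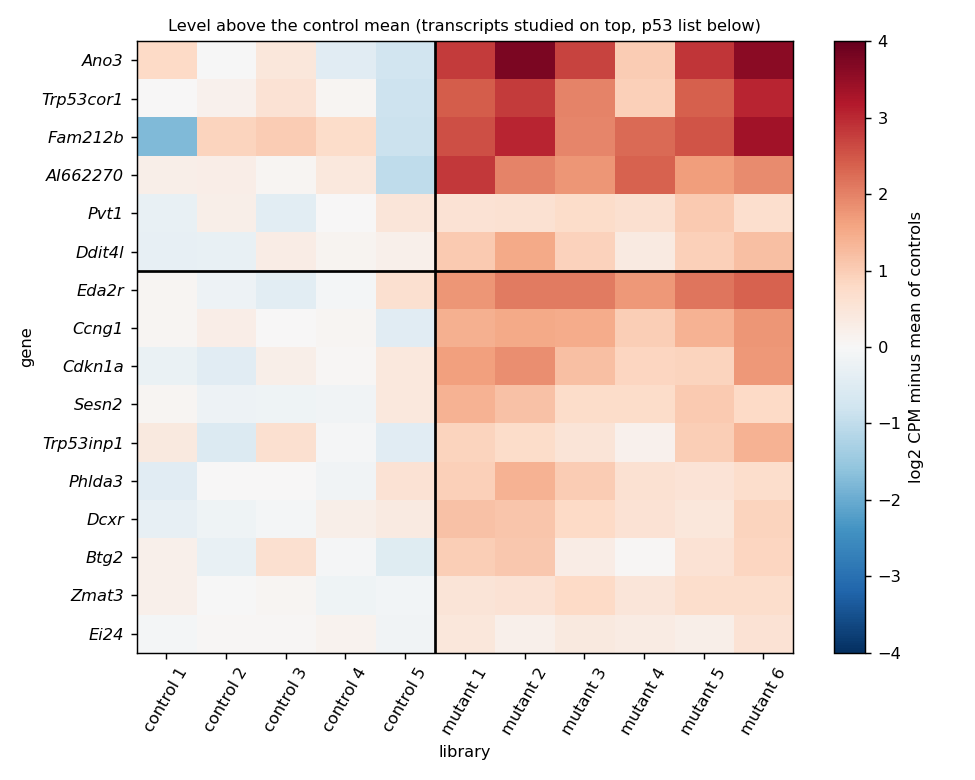
Log2 CPM minus the mean of the controls (colour scale) for the 6 transcripts (top) and the 10 called genes of the p53 list (bottom) in the 5 control and 6 mutant libraries. All mutant columns are red in the upper block, palest in mutant 4 for Ano3, Trp53cor1 and Ddit4l.

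The libraries differed in how far the set was raised. The median of the 6 transcripts above the control mean was 2.498 log2 units in mutant 1, 2.40 in mutant 2, 1.87 in mutant 3, 0.98 in mutant 4, 2.03 in mutant 5 and 2.48 in mutant 6. The 10 called p53 genes had 1.07, 1.13, 0.79, 0.60, 0.80 and 0.87 in the same order. Both sets were picked for being higher in these mutants. Over all tested genes of the p53 list, called or not, the medians were 0.238, 0.424, 0.181, 0.066, 0.219 and 0.185. Mutant 4 was lowest by each measure. Mutants 1, 2 and 6 were the top 3 for the set and for the called genes, but mutants 1, 2 and 5 were for the whole tested list. Gmnn in mutants 1 to 6 was 103, 138, 119, 130, 102 and 99.5 CPM, so that of the 2 mutants with the most Gmnn, mutant 2 was among the top 3 and mutant 4 was lowest. In controls the set was lowest in control 5, at -0.80 log2 units, while the called p53 genes had their highest control value there, 0.12. The median of the whole tested p53 list was lowest among controls there, at -0.09.

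For each transcript the genes most like it were sought by the root mean square difference in log2 CPM, centred on the mean, over the 11 libraries. These libraries share the genotype contrast for which the 6 were chosen, so the likeness is a description. Trp53cor1 and Ano3 were nearest to each other, 0.44 log2 units apart. Ptprv and Kcnmb1 were next for Ano3 (0.85 and 0.86), and Ptprv and Ccng1 for Trp53cor1 (0.54 and 0.58). For AI662270 they were Ptprv (0.52), Kcnmb1 (0.54) and Ccng1 (0.54), and for Fam212b Zfp365 (0.71), Trp53cor1 (0.73) and Gm9949 (0.81). Ddit4l was nearest to Dcxr (0.25), Cdkn1a (0.26) and Phlda3 (0.28), all from the p53 list. Pvt1 was nearest to Gm26825 (0.17), Gmip (0.17) and Ccne1, which encodes cyclin E1 (0.19), none of them on that list.

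Markers of other cell types were read beside these results. The median log2 fold change of all genes tested was 0.00382. Markers of the same cell type can move together, so counts over such a list are not counts of separate results. Of 16 macrophage markers 15 were tested, 14 had a fold change above 0 and 0 passed by edgeR (median 0.73), with Spi1 too low to test. Their summed level was 13.5 to 70.3 CPM in controls and 29.9 to 91.5 CPM in mutants. It was lowest in control 5, where Ano3, Trp53cor1 and AI662270 were also lowest among controls, and highest in mutants 2 and 6, the top pair for Ano3, Trp53cor1, Fam212b and Ddit4l. The other members differed in control 5. Pvt1 was highest among controls there (10.7 CPM), Ddit4l was above controls 1, 2 and 4 (7.57 CPM), and Fam212b was lowest in control 1. In mutant 1, with the highest AI662270 level, the summed level was 64.0 CPM, below the 70.3 CPM of control 3. In mutants 3, 4 and 5 the summed level lay below that of controls 1, 3 and 4, the lowest of which was 47.4 CPM in control 1. It lay above that of controls 2 and 5. Each of the 6 transcripts was higher in mutants 3, 4 and 5 than in every control. The highest fold changes of the list on the log2 scale were those of Tyrobp (1.51, SE 0.38, adjusted p 0.0555 by edgeR), C1qc (1.36, SE 0.71) and Aif1 (1.34, SE 0.41). The exception to their direction was Adgre1 (-0.08, SE 0.60), which was at 0 in at least 1 library of each group. The part of macrophages in the result was not tested. All 6 red blood cell genes had a fold change above 0 (median 0.58, 0 passed), at 10220 to 25093 CPM in controls and 12214 to 42706 CPM in mutants, and their part was not tested.

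Neural and neural crest markers bear on Ano3, which is known from neurons. Of 12 listed, 5 were tested and 0 passed, and 1 was above 0, Stmn2 (0.58, SE 0.17, edgeR adjusted p 0.0764). Sox2, Pax6, Elavl3, Neurod1, Neurog2, Olig2 and Foxd3 were too low to test, and Olig2 had 0 reads in all libraries. The summed level was 48.1 to 69.8 CPM in controls and 42.02 to 71.6 CPM in mutants. Endothelial genes summed to 137 to 221 CPM in controls and 108 to 185 CPM in mutants, and surface ectoderm genes to 141 to 275 and 159 to 273 CPM, with 0 of 6 and 0 of 7 past the threshold. Of 6 muscle genes, Acta1 (-3.78, edgeR adjusted p 0.0353) and Myl1 (-2.66, edgeR adjusted p 0.0452) fell, though their groups overlapped, and the list summed to 41.4 to 87.0 CPM in controls and 38.2 to 70.7 CPM in mutants.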

How the data were processed

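RNA-seq reads of 11 forelimb bud libraries, made after ribosomal RNA depletion, were analysed as deposited. Per the file headers, the authors counted reads per gene name with featureCounts 1.4.6-p4 on mm10 and GENCODE M9, with a mapping quality of at least 10 and no option for strand, read pairs or overlapping genes. By the tool's default a read over exons of more than 1 gene is then dropped. STAR 2.5.4b is named in the submitters' processing notes. The header lists 12 alignment files, and the table used here holds 11 libraries. The table also gives the summed exon length of each gene, per the file headers.

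Counts were analysed with edgeR 4.0.16 in R 4.3.3. Genes were kept by filterByExpr (15821 genes, 99.9% of counts) and scaled by TMM. The quasi-likelihood test was two-sided, with terms for litter and genotype. P-values were adjusted by Benjamini-Hochberg across every tested gene, and 0.05 was the threshold. Log2 CPM used a prior count of 2. Litters come from the titles and the design text. As a check, deviations from group means correlated across genes with a median of 0.13 over 8 same-litter pairs and -0.02 over 22 others. Within groups, no pair of libraries had a chi-square below 7.04 per degree of freedom, so none was a repeat deposit within sampling noise. Libraries were taken as separate embryos from the numbers in the titles, and p-values measure the spread between them.

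The 6 transcripts, the gene lists and the tests were chosen with earlier results of these data known. Named genes were the 6, Gmnn, their nearest tested neighbours, up to 8 called p53 targets, listed relatives, up to 8 other called genes under 5 CPM with at least the lowest fold change of the 6 (predicted, Y-linked and Xist genes left out), called listed non-coding RNAs and the 3 most similar genes of each. Meis1, Lhx9, Acta1, Myl1, Stmn2, Neat1, Mdm2, Bbc3, Sesn1, Tyrobp, C1qc, Aif1, Adgre1, Zmat3 and Ei24 were named from the lists after their values were seen. The fitting script was tested on simulated counts. Alternatives were other scalings and filters, DESeq2 1.42.0, limma-voom (limma 3.58.1), no block, a Y-linked covariate, and each library or litter left out.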

Additional observations from a re-analysis of the deposited data

Results flagged for a closer look

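In the 6 transcripts and Gmnn, the highest and the lowest library of each genotype were compared with the spread of the others by Dixon's criterion, and 2 of 28 ends stood too far out. Chance alone puts about 1 in 20 groups past this criterion, and 14 groups were looked at. AI662270 was at -1.94 log2 CPM in control 5, from 2 reads where the mean of the other controls gives 7.26. Pvt1 was at 4.01 log2 CPM in mutant 5, which is 15.99 CPM from 234 reads. The range over mutants 1, 2, 3, 4 and 6 was 11.5 to 12.8 CPM.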

How the results depend on the processing

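All 6 transcripts kept their direction under each of the 25 alternatives tried for them. Their log2 fold changes ran from 3.36 to 3.85 for Ano3, 2.77 to 3.02 for Trp53cor1, 2.36 to 3.02 for Fam212b, 2.10 to 2.60 for AI662270, 0.59 to 0.84 for Pvt1 and 0.72 to 1.26 for Ddit4l. Ddit4l, at 1.06 (SE 0.19) in the main fit, was lowest without litter A and highest without litter D. Of the 6, 0 passed for litter (22 alternatives) or interaction (7). The count of p53 targets that rose, 10, was 5 without the litter block, 1 without litter A or C, 2 without litter B, and 1 to 13 when 1 library was left out. It was 15 without the filter on low counts, within 1.5 times of 10. That fit gave far smaller adjusted p at nearly the same fold changes, so its counts are not a like comparison. Cdkn1a had an edgeR adjusted p of 1.8e-32 there and 0.0291 in the main fit, with a log2 fold change of 1.38 in both. The number of neighbours called, 1, was 2 without the filter on low counts, 0 without litter A, B or C, and 0 to 1 when 1 library was left out. Fewer libraries leave fewer degrees of freedom, and other causes were not tested. Litters B and C have 1 library of each genotype, so leaving out either one takes that litter out of the genotype contrast. For Gmnn the log2 fold change was -0.71 without control 3, without mutant 6 and without litter B. Such fits are not separate checks, though the counts over 11 fits include each of them. With 1 to 20 reads per control library, depth limits what can be said of Ano3, Trp53cor1, Fam212b and AI662270 in single controls. Without the replicate block (litter), none of the 6 changed direction.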
